A study of Mus musculus with 68 samples.

Results

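Some genes of the mouse lung were read at a far higher level in 1 inbred strain than in the other. In the clean-air RNA-seq libraries of C57BL/6J and CAST/EiJ mice, 207 of the 23872 genes that have a value (0 included) for every library were such near on-or-off genes. A gene was taken when its mean CPM (counts divided by the library total and multiplied by 1e+06) differed at least 8-fold between the strains, with 0.05 CPM added to both means, and its higher mean was at least 1 CPM. Another 27 genes past the same limits were set aside by name before the count, because they belonged to listed families (histocompatibility, tripartite motif, C-type lectin, keratin, ribosomal protein, cytochrome P450 and globin genes among them) or to 4 listed single genes. Of the 207 genes, 90 were higher in CAST/EiJ and 117 in C57BL/6J. They made up 1.28% of the 16208 genes whose higher clean-air mean reached 1 CPM. The members were chosen by these clean-air CPM values, so all clean-air differences are descriptions without a test. The libraries of mice that breathed 1,3-butadiene did not take part in the choice, and the strain comparison among them is tested.

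The lungs came from wild-type male mice bought from The Jackson Laboratory. C57BL/6J is the standard laboratory strain and the source of the mouse reference genome, and CAST/EiJ is an inbred strain derived from wild Mus musculus castaneus. Exposed mice breathed 1,3-butadiene (BD, an industrial gas that the body turns into reactive epoxides) for 6 hours a day on weekdays over 2 weeks, and control mice breathed clean air. The RNA-seq groups held 5 clean-air C57BL/6J, 6 BD C57BL/6J, 7 clean-air CAST/EiJ and 6 BD CAST/EiJ libraries, of polyadenylated RNA from whole lung, and a level of 1 CPM was 10.6 counts in the smallest and 50.002 counts in the largest library. The labels give neither the age of the mice nor the BD concentration. The labels do not say whether each library came from a separate mouse, so p-values measure the spread between these libraries. In whole tissue, fewer cells of a type and less RNA per cell cannot be told apart.

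Inbred strains carry fixed sequence differences, and a gene can be near silent in 1 strain because of a changed promoter or enhancer, an early stop with decay of the transcript, a deletion or a difference in copy number. A strain difference can also come from the makeup of the tissue, when a cell type that makes the transcript is rare in 1 strain. Measurement is a further source: reads of a strain that differs from the reference genome can fail to align, and copies of a gene can share or lose reads. The reads here were aligned with GSNAP to the mm9 genome, which is of C57BL/6J, per the submitters' processing notes, and the part of alignment in the low CAST/EiJ values was not tested.

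The promoters of near on-or-off genes were poor in CpG, and 4 of them are shown because they carry the features that the summary counts. RefSeq promoters of 300 bases, from 250 before to 50 after the start (first listed start, build GRCm38.p6, C57BL/6J sequence only), were found for 155 of the 207 genes. Their median ratio of observed to expected CpG was 0.32, against 0.72 in 12442 promoters of genes at 1 CPM or more in a clean-air group and 0.39 in all 27025 promoters. A ratio over 0.6 was found in 27.7% of the members' promoters, in 63.9% of those of the expressed genes and in 36.4% of all promoters. The letters TATAAA, searched on both strands, stood in 19.4% of the members' promoters, in 8.45% of those of the expressed genes and in 14.2% of all promoters. These are descriptions of the chosen genes, and a match is not a site in use. Fetub, higher in CAST/EiJ, and Chia1, higher in C57BL/6J, each have TATAAA (in capitals) upstream of the start, beginning 31 bases before it in Fetub and 43 bases before it in Chia1. The Fetub promoter lies on the plus strand at chr16:22918132-22918431 and that of Chia1 on the plus strand at chr3:106113132-106113431.
Fetub: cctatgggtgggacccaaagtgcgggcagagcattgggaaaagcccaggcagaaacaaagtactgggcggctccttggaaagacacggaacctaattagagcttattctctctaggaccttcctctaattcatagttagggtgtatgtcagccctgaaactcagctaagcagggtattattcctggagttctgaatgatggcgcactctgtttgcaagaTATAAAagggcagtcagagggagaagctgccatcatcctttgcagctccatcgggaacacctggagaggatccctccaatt
Chia1: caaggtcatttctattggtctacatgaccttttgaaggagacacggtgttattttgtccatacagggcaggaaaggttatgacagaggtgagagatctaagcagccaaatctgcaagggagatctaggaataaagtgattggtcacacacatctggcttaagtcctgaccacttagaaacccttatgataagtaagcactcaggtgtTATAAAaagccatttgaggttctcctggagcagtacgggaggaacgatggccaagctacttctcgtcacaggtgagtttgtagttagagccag

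Lypd4 and Dmrtc2, both higher in C57BL/6J, start close to each other on opposite strands, and their promoters share 135 bases (in capitals). The Lypd4 promoter lies on the minus strand at chr7:24869642-24869941 and the Dmrtc2 promoter on the plus strand at chr7:24869807-24870106. Their ratios of observed to expected CpG were 0.64 and 0.95. In order of replicate, the clean-air C57BL/6J libraries had 63, 23, 8, 17 and 23 counts of Lypd4. The same libraries had 113, 41, 14, 32 and 41 counts of Dmrtc2, a near fixed proportion. The same reads may be counted for both genes, which was not tested.
Lypd4: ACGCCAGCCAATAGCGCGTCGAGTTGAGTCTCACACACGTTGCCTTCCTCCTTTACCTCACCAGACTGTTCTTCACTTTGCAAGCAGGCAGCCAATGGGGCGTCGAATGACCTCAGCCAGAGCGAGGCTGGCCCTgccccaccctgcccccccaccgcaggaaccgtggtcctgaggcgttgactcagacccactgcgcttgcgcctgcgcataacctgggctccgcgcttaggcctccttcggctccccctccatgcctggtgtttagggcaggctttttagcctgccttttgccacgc
Dmrtc2: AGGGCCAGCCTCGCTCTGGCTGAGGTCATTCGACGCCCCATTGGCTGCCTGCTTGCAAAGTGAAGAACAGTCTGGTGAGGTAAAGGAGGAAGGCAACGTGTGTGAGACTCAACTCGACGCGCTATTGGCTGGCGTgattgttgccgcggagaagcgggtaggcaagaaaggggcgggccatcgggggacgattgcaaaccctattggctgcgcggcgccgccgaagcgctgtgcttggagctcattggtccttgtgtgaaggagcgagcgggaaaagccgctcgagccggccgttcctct

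Of the 4 microRNA genes among the members, 2 matched a mature sequence by name. They are shown with the seed (bases 2 to 8) in capitals, since the seed decides which targets a microRNA pairs with, and the 2 seeds differ. The libraries count polyadenylated RNA over the gene, so the values below are not levels of these mature microRNAs. Mir692-1 gives miR-692 from chr17:6895259-6895279 on the minus strand and Mir703 gives miR-703 from chr5:98475616-98475636 on the minus strand (RefSeq, GRCm38.p6).
miR-692: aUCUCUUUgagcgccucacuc
miR-703: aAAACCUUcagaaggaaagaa

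Replicate 5 of the CAST/EiJ BD group (title number 8) went against its strain label. Each library was placed between the mean of the 6 BD C57BL/6J libraries (0) and that of the other 5 BD CAST/EiJ libraries (1) on a log2 scale, over the 188 members whose ranges did not overlap between those libraries. Its median position was -0.01, while the other CAST/EiJ libraries of both treatments stood between 0.98 and 1.05 and the C57BL/6J libraries between -0.07 and 0.02. All libraries but replicate 5 chose these genes or set the ends of the scale. Their positions near 0 and 1 follow from that choice and are no measure of spread for replicate 5. Replicate 5 lay nearer C57BL/6J at 181 of the 188 genes. Each BD result is therefore given without this library and with it, and "the other 5 BD CAST/EiJ libraries" are those without it. The plot of library positions shows this arrangement.

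**Figure D1:**
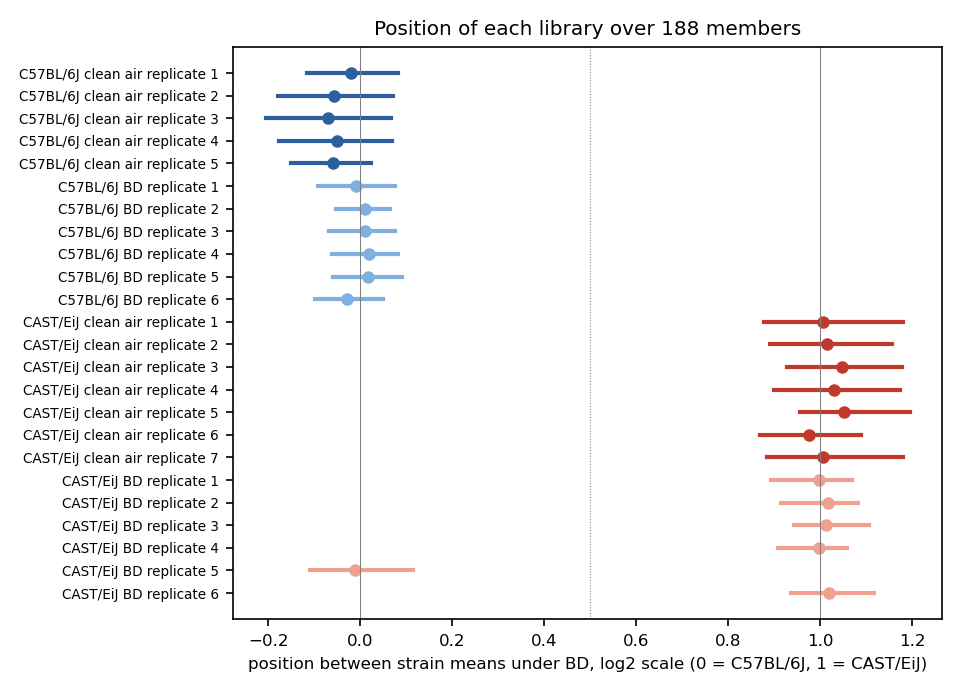
Position of each of the 24 libraries between the strain means under BD (x axis, log2 scale, 0 for C57BL/6J and 1 for CAST/EiJ without replicate 5), as the median (point) and the quartiles (bar) over 188 members. CAST/EiJ BD replicate 5 stands at -0.01, with the C57BL/6J libraries. The other libraries chose these members or set the ends of the scale, so their positions follow from that choice.

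In clean air, the median ratio between the strain means was 13.5 over all 207 genes, 12.3 over the 90 higher in CAST/EiJ and 13.8 over the 117 higher in C57BL/6J. The ratio was at least 16 in 80 genes and at least 32 in 31. The libraries of the strains did not overlap at 183 of the 207 genes (76 higher in CAST/EiJ, 107 in C57BL/6J). Over the 16208 genes at 1 CPM or more, ranges did not overlap at 32.9% (13.7% higher in CAST/EiJ, 19.2% in C57BL/6J), and the members' share cannot be read against this since the same libraries chose them. The lower strain was seldom at 0 in all of its libraries, but at least 1 of them was at 0 in 87 genes. Of these, 33 were higher in CAST/EiJ and 54 in C57BL/6J. The mean of the lower strain was under 0.5 CPM in 138 genes, yet 12 genes had at least 5 CPM in it. Nkain3 and Pnlip were the 2 genes without a count in any clean-air library of the lower strain. Nkain3 had 247 counts in the 7 CAST/EiJ libraries and none among the 100589331 counts of the 5 C57BL/6J libraries. It was at least 61.8-fold higher in CAST/EiJ, from a floor of 3 counts over the C57BL/6J group. Pnlip had 123 counts in C57BL/6J and none in CAST/EiJ, at least 50.1-fold on the same kind of floor, but nearly all came from 1 library, described below. Such floors cover counting error only.

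**Figure D2:**
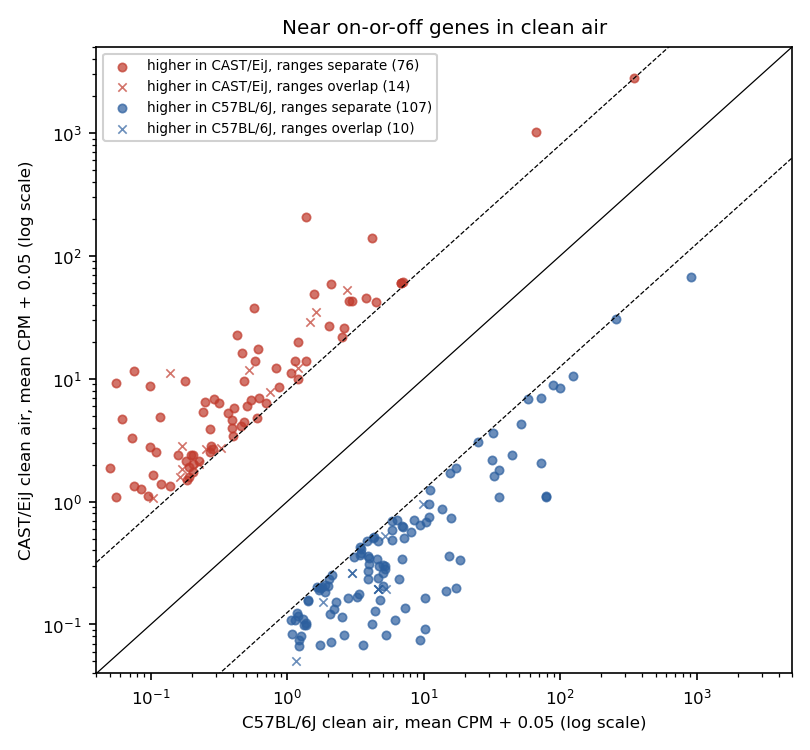
Mean CPM + 0.05 of the 207 genes in clean-air CAST/EiJ (y axis) and C57BL/6J (x axis), both on log scales. Circles are genes whose libraries did not overlap between strains and crosses are the other 24, and dashed lines mark the 8-fold limit that chose the genes.

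The limit of 8 was not a gap in the data. Just inside it were Lyz1 (ratio 8.003), Cd164l2 (8.04) and Olfr1383 (8.19) on the CAST/EiJ side, and just outside Itih4 (7.87), Elfn2 (7.82) and Gkn3 (7.81). On the C57BL/6J side Bpifb5 (8.09), Gapdh (8.18) and Gpc2 (8.18) were just inside, and Ikzf3 (7.91), Ms4a7 (7.75) and Ip6k3 (7.68) just outside. Nnt, a mitochondrial transhydrogenase known to carry a deletion in C57BL/6J, was not a member: it measured 29.8 to 35.3 CPM in clean-air C57BL/6J and 69.7 to 84.9 CPM in clean-air CAST/EiJ. Ifi202b, an interferon-inducible gene, reached at most 0.83 CPM in any library, under the limit of 1 CPM.

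The genes higher in CAST/EiJ included secreted plasma proteins that are best known from the liver. Kng1 and Kng2 encode kininogens, the precursors of the peptide bradykinin. Kng2 measured 167 CPM at the lowest, 199 at the median and 282 at the highest over the 7 clean-air CAST/EiJ libraries, and 0.693, 3.08, 0.283, 1.58 and 0.935 CPM in the 5 clean-air C57BL/6J libraries. The lowest CAST/EiJ library was far above the highest of C57BL/6J, and the ratio of means was 150.1. Under BD, Kng2 was at 201, 179, 181, 197 and 191 CPM in the other 5 CAST/EiJ libraries, at 0.959 CPM in replicate 5, and at 0.916 to 1.27 CPM in the 6 C57BL/6J libraries. Kng1 ranged from 101.8 to 249 CPM in clean-air CAST/EiJ and from 0.935 to 11.7 CPM in clean-air C57BL/6J. Fetub (fetuin B, a protease inhibitor) ranged from 35.1 to 68.6 CPM against 2.55 to 5.78 CPM, and Itih3 (a heavy chain of the inter-alpha-trypsin inhibitor) from 31.6 to 63.8 CPM against 1.43 to 5.63 CPM. Fgl1 (fibrinogen-like 1, named after its values were seen) ranged from 28.4 to 51.8 CPM against 0.189 to 1.00 CPM.

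RNA of liver was measured beside these genes by a list of 6 liver markers (Alb, Apoa1, Apoa2, Ttr, Serpina1a and Fgb). Their summed level was 3.91 to 9.70 CPM in 5 of the 7 clean-air CAST/EiJ libraries, 123 in replicate 6 and 1394 in replicate 7, and 20.8 to 377 CPM in clean-air C57BL/6J. In the 5 CAST/EiJ libraries where the list stayed under 10 CPM, Kng2 was at 191.6 to 282 CPM, Kng1 at 101.8 to 149.6, Fetub at 35.1 to 49.9, Itih3 at 31.6 to 46.8 and Fgl1 at 28.4 to 51.8 CPM. In these 5 libraries the liver list was lower than in any clean-air C57BL/6J library, and the 5 genes were higher. The part of liver RNA in these differences was not tested.

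Other abundant genes on the CAST/EiJ side had roles in defence, metabolism and signalling. Lyz1, a lysozyme of the airway and gut, measured 2013 to 3490 CPM (median 2791) in clean-air CAST/EiJ and 373, 322, 320, 382 and 353 CPM in clean-air C57BL/6J, without overlap. Reads that its close relative Lyz2 could share make its level uncertain. Arg2, the mitochondrial arginase, measured 45.3 to 75.04 CPM in CAST/EiJ and 7.12, 8.09, 5.19, 8.27 and 6.64 CPM in C57BL/6J. Wif1, a secreted inhibitor of Wnt ligands, was at 29.6 to 51.4 CPM against 2.93 to 5.47 CPM, and Col6a5, a collagen VI chain, at 35.7 to 53.8 CPM against 2.27 to 3.65 CPM. Tas1r1, a subunit of the umami taste receptor, was at 20.01 to 122 CPM against 1.04 to 1.89 CPM. Its CAST/EiJ values were not even: the 5 libraries with title numbers over 100 had a mean of 31.3 CPM and numbers 1 and 2 had 93.3 CPM. Cxcr1, a chemokine receptor of neutrophils, was at 10.3 to 20.5 CPM in CAST/EiJ and 0.283 to 0.762 CPM in C57BL/6J.

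Small RNA genes held 4 members among 338 genes at 1 CPM or more (1.18%, against 1.28% over all genes), all higher in CAST/EiJ. Mir703 measured 34.5 to 84.9 CPM in clean-air CAST/EiJ and 3.09, 1.77, 2.26, 1.11 and 1.92 CPM in C57BL/6J. Mir692-1 was at 6.17 to 23.3 CPM against 0.472 to 1.47 CPM. Mir692-2a and Mir692-2b, whose counts are identical in every library and so are 1 measurement, were at 46.3 to 71.8 CPM against 5.28 to 7.86 CPM. The largest ratio of all, 166, was that of 1700025M24Rik, named after its values were seen. It measured 9.54, 11.8, 8.99, 0.869, 13.8, 12.2 and 6.73 CPM in the 7 clean-air CAST/EiJ libraries and had 1 count in clean-air C57BL/6J. Under BD it was at 1.58, 1.05, 14.04, 1.49 and 11.3 CPM in the other 5 CAST/EiJ libraries, so it was uneven within the strain where it was on. Gm14420 (Zfp970 in RefSeq), a zinc finger gene named after its values were seen, measured 670.5 to 1596 CPM in CAST/EiJ and 49.8 to 74.5 CPM in C57BL/6J. Its promoter has 25 near copies elsewhere in the promoter table, so reads of other genes may be counted for it.

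The genes higher in C57BL/6J began with complement. Hc encodes complement C5, whose cleavage starts the membrane attack complex, and C7 encodes a later part of that complex. Hc measured 1088, 873, 762, 951 and 884 CPM in the 5 clean-air C57BL/6J libraries and 57.3 CPM at the lowest, 61.9 at the median and 95.4 at the highest over the 7 clean-air CAST/EiJ libraries. C7 measured 228, 259.7, 251, 330.2 and 220.0 CPM in C57BL/6J and 23.8 to 41.2 CPM in CAST/EiJ. Neither gene overlapped between strains, with ratios of 13.5 and 8.45. Among the 34 complement genes at 1 CPM or more, these were the 2 members, and both were higher in C57BL/6J.

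Receptors, binding proteins and enzymes followed on the C57BL/6J side. Glp1r, the receptor of the incretin GLP-1, measured 88.0, 93.5, 119, 97.5 and 101.6 CPM in clean-air C57BL/6J and 4.02 to 12.4 CPM in CAST/EiJ. Igfbp2, which binds insulin-like growth factors, measured 149.5, 96.9, 124, 113 and 133 CPM against 4.33 to 24.9 CPM. Chia1, the acidic chitinase, measured 70.0, 76.3, 63.0, 74.5 and 75.5 CPM against 0.688 to 3.87 CPM, a ratio of 34.8. Prkg2, a cGMP-dependent kinase, was at 31.7 to 37.4 CPM against 0.393 to 1.42 CPM, Sult1d1, a sulfotransferase, at 18.8 to 49.7 CPM against 0.246 to 4.45 CPM, and Pttg1, securin, at 28.3 to 35.1 CPM against 2.60 to 4.50 CPM. Spp1 (osteopontin) was at 57.8 to 92.0 CPM against 2.70 to 15.7 CPM, and the transcription factor Sox11 at 39.1 to 64.3 CPM against 2.60 to 5.34 CPM. Tgtp2, an interferon-inducible GTPase, was at 51.4 to 123 CPM in C57BL/6J, while 6 of the 7 CAST/EiJ libraries were at 4.16 to 6.36 CPM and replicate 6 was at 30.6 CPM.

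Gapdh, the glycolytic enzyme, entered the list at 18.2 to 28.5 CPM in clean-air C57BL/6J against 2.04 to 4.18 CPM in CAST/EiJ. Gapdh has many near-identical processed copies in the mouse genome, and how such reads were counted is not given in the sources used here, so these values are uncertain as a measure of its transcript. Cd3e, a chain of the T cell receptor complex named after its values were seen, was at 2.56, 4.55, 7.27, 4.34 and 4.05 CPM in clean-air C57BL/6J and 0.149 to 0.608 CPM in CAST/EiJ. The summed level of the T cell list (3 of its 4 markers are in the table, Cd3e among them) was 10.3 to 17.6 CPM in clean-air C57BL/6J and 4.24 to 7.44 CPM in clean-air CAST/EiJ, and the part of T cell number in the Cd3e difference was not tested.

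**Figure D3:**
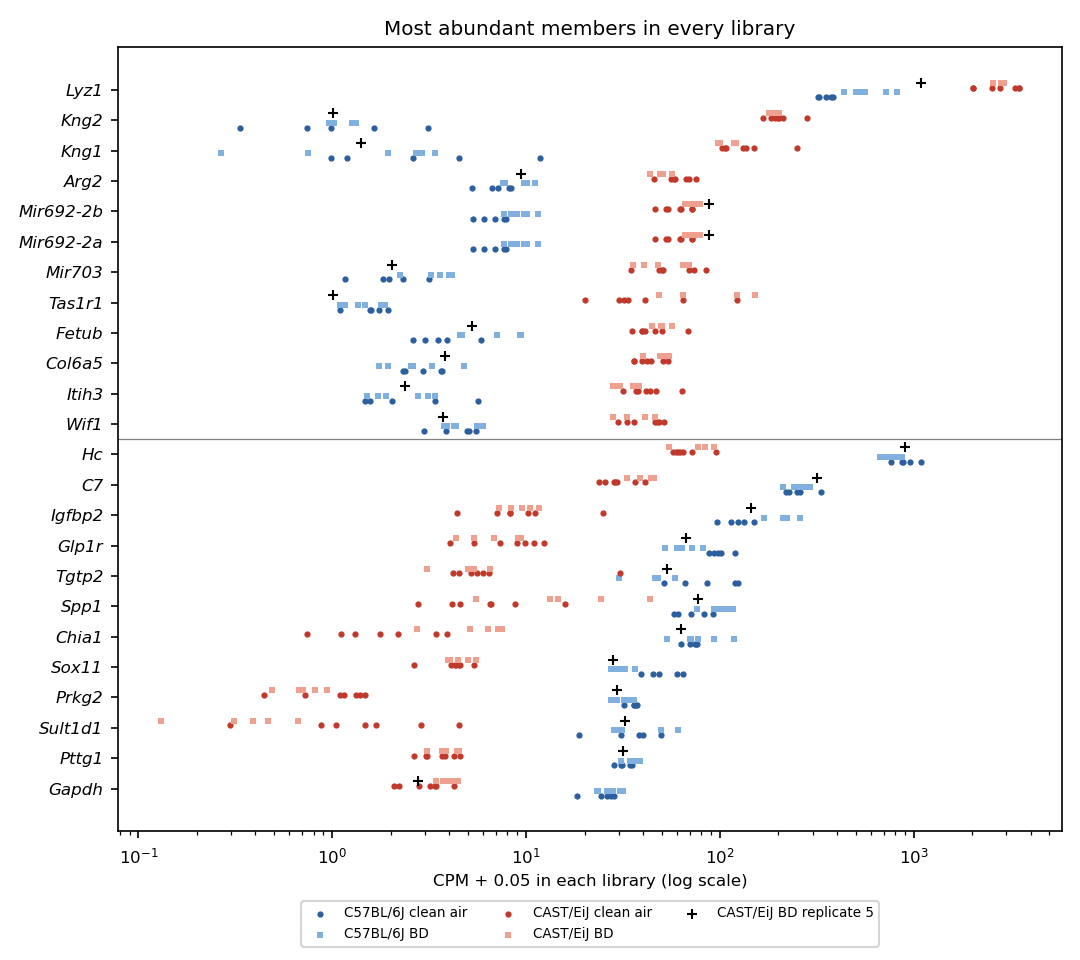
CPM + 0.05 (x axis, log scale) in each of the 24 libraries for the 12 most abundant members on each side whose clean-air libraries did not overlap, CAST/EiJ-high above the line and C57BL/6J-high below it. Circles are clean-air and squares BD libraries, and the plus sign is CAST/EiJ BD replicate 5, which lies nearer CAST/EiJ at Gapdh, Mir692-2a and Mir692-2b and between the strains at Lyz1 (1088 CPM).

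The strain differences stood again in the BD libraries. Without replicate 5, edgeR's quasi-likelihood test between the 5 CAST/EiJ and the 6 C57BL/6J BD libraries called 186 of the 199 members it could test at an adjusted p of 0.05, against 42.7% of all 17377 genes tested. The 78 called members that were higher in CAST/EiJ in clean air were higher in CAST/EiJ under BD too (20.4% of all genes were called in that direction), and the 108 called members of the C57BL/6J side were higher in C57BL/6J (22.3% of all genes). No member was called in the opposite direction. The median fold was 15.2 over the 88 CAST/EiJ genes tested and 12.9 over the 111 C57BL/6J genes tested on edgeR's scale. These folds are not on the scale of the clean-air ratios and leave out the members too low to be tested. As ratios of mean CPM over all members, the medians under BD without replicate 5 were 11.9 (CAST/EiJ side) and 10.1 (C57BL/6J side). In clean air they were 12.3 and 13.8. With replicate 5 kept under its label, 170 of 200 members were called (78 and 92), against 34.7% of 17371 genes (17.2% and 17.5%), and the median fold of the C57BL/6J genes was 4.18. Called and at least 8-fold apart were 66 CAST/EiJ and 83 C57BL/6J members without replicate 5 (0.863% and 0.88% of all genes in those directions), and 65 and 7 with it (0.794% and 0.0633%). The 8 members that were too low to be tested without replicate 5 were Amy2a2, Amy2a3, Amy2a4, Amy2a5, Bmp10, Pnlip, Gm4794 and Igfbp1. The 13 that were tested and not called were Mup1, Mup9, Mup12, Mup13, Mup17, Sult3a1, Elovl3, LOC100048884, Lce1i and Lce1j on the CAST/EiJ side and Capn11, Sprr2a1 and Sprr2a2 on the C57BL/6J side.

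Kng2 differed by a log2 value of 7.51 (SE 0.26, adjusted p = 4.87e-16) between the strains under BD without replicate 5, and by 7.25 (SE 0.74, adjusted p = 1.23e-06) with it. Kng1 differed by 5.91 (SE 0.54, adjusted p = 2.14e-08), Tas1r1 by 5.96 (SE 0.47, adjusted p = 2.24e-09) and Lyz1 by 2.21 (SE 0.16, adjusted p = 7.5e-11) without it. On the other side Hc differed by -3.29 (SE 0.14, adjusted p = 4.47e-15), Prkg2 by -5.58 (SE 0.21, adjusted p = 3.62e-16) and Chia1 by -3.82 (SE 0.32, adjusted p = 3.14e-09). In the 6 BD C57BL/6J libraries Hc was at 668 to 869 CPM (median 774.5) and Chia1 at 52.9 to 118 CPM (median 73.7). The other 5 BD CAST/EiJ libraries had Hc at 76.7, 92.7, 54.2, 83.7 and 83.2 CPM and Chia1 at 5.07, 7.08, 2.70, 7.47 and 6.34 CPM, and replicate 5 had 897 and 63.0 CPM. Neither gene overlapped between the strains without replicate 5, and replicate 5 was within the C57BL/6J range for Chia1 and above it for Hc.

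By ratio of means, 143 members were at least 8-fold apart under BD without replicate 5, 56 were between 2 and 8-fold and 8 no longer had a 2-fold difference in the same direction. Of all 16208 genes at 1 CPM or more in clean air, 1.28% were at least 8-fold apart under BD and 11.5% at least 2-fold. Ranges did not overlap at 188 of the 207 members (80 and 108), against 29.8% of those genes (13.2% and 16.6%). The 8 genes that lost the difference were Igfbp1 on the CAST/EiJ side and Amy2a2, Amy2a3, Amy2a4, Amy2a5, Bmp10, Pnlip and Capn11 on the C57BL/6J side, and all but Capn11 had a BD ratio on the opposite side of 1. Amy2a5 was at 0 to 0.243 CPM in the other 5 BD CAST/EiJ libraries and at 0 to 0.0542 CPM in BD C57BL/6J. All 8 had overlapping ranges in clean air.

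**Figure D4:**
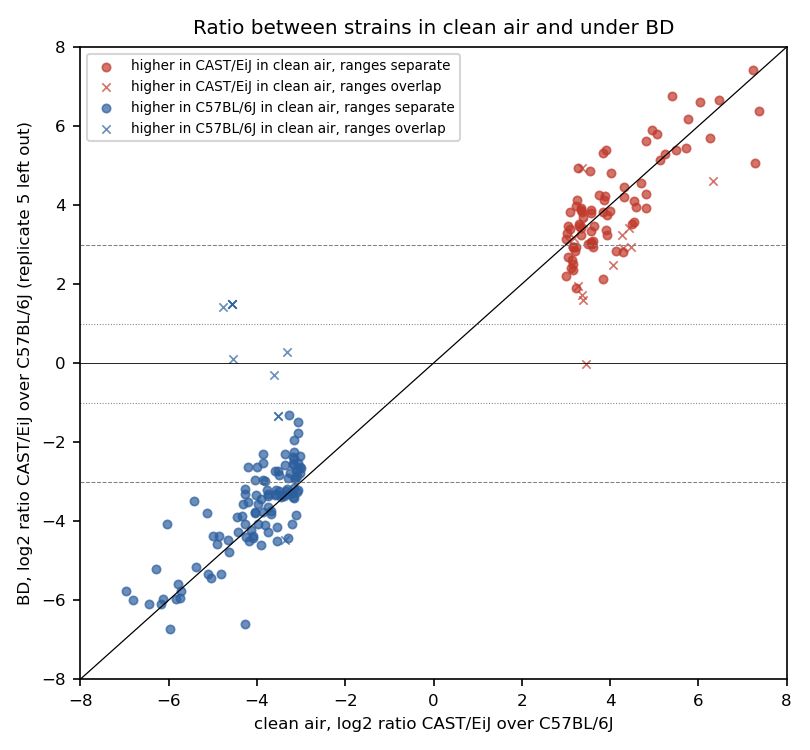
Log2 ratio of the strain means (0.05 CPM added) in clean air (x axis) and under BD without CAST/EiJ BD replicate 5 (y axis) for the 207 genes. Dashed lines mark 8-fold and dotted lines 2-fold under BD, and crosses are the 24 genes whose clean-air libraries overlapped between strains, among them all 8 that lost the 2-fold difference.

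The membership of 55 of the 207 genes ended when 1 clean-air library was left out. Lyz1, Gapdh, C7, Bpifb5, Gpc2, Cd164l2 and Olfr1383 were among them, with ratios close to the limit of 8. For others a single library was far above the rest, and the lists of other tissues are given beside those. In CAST/EiJ clean-air replicate 7, where the liver list was at 1394 CPM, Mup9 was at 75.8, Mup12 at 231, Mup13 at 80.9 and Mup17 at 346 CPM. These genes encode major urinary proteins, made mainly by the liver. In 5 of the other 6 clean-air CAST/EiJ libraries Mup17 was at 0.0983 to 0.913 CPM, and in replicate 6, with a liver list of 123 CPM, it was at 19.9 CPM. Leaving out replicate 7 ended the membership of 16 genes, among them the 5 Mup genes of the CAST/EiJ side, Igfbp1, Elovl3 and Sult3a1. Igfbp1, a hepatic binding protein of insulin-like growth factors, was at 11.8 CPM in replicate 7 and at most 0.593 CPM in the others. Under BD the 5 other CAST/EiJ libraries, with a liver list of 24.4 to 86.0 CPM, had Mup12 at 2.25 to 6.19 CPM, and 3 C57BL/6J libraries with a liver list of 109 to 116 CPM had it at 0.255 to 0.541 CPM. The edgeR difference of Mup12 under BD was 3.65 (SE 1.84, adjusted p = 0.12) without replicate 5, which is no call. Mup20 went the other way, with 27.6 CPM in C57BL/6J clean-air replicate 2, where the liver list was at 377 CPM, and 1.43 to 12.5 CPM in the other 4.

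On the C57BL/6J side, replicate 5 of clean air carried pancreas and heart genes. Amy2a5, a pancreatic amylase, was at 25.8 CPM there and at 0.0267, 0.462, 0 and 0.0586 CPM in replicates 1 to 4. The entries Amy2a2, Amy2a3 and Amy2a4 hold identical counts, at 22.6 CPM in that library, and Pnlip, the pancreatic lipase, was at 5.39 CPM there. A list of 10 other pancreas genes, chosen after the values were seen, summed to 31.8 CPM in replicate 5 and to 3.58 to 4.98 CPM in the other 4. Bmp10, a growth factor of the atria of the heart, was at 25.7 CPM in that library and at 0 in the other 4, and the heart muscle list summed to 2007 CPM there and to 651 to 1269 CPM in the other 4. The heart list was also high in CAST/EiJ clean-air replicates 6 (2818 CPM) and 7 (1945 CPM) and BD replicate 3 (2972 CPM), where Bmp10 was at 3.14, 0.0708 and 0.9 CPM. Capn11 and Sprr2a1 were highest in C57BL/6J clean-air replicate 1, at 5.84 and 12.9 CPM, where a squamous epithelium list (Krt5, Krt13, Krt4, Sprr1a, Sprr3, Krtdap and Dsg3) summed to 1666 CPM against 1.47 to 4.53 CPM in the other 4. The list reached 2200 and 2041 CPM in CAST/EiJ clean-air replicates 1 and 2, where Sprr2a1, a cornified envelope protein, was at 0.158 and 0.342 CPM. The part of these tissues in the strain ratios was not tested. With each clean-air library left out in turn, 152 of the 207 genes stayed members every time (62 and 90).

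**Figure D5:**
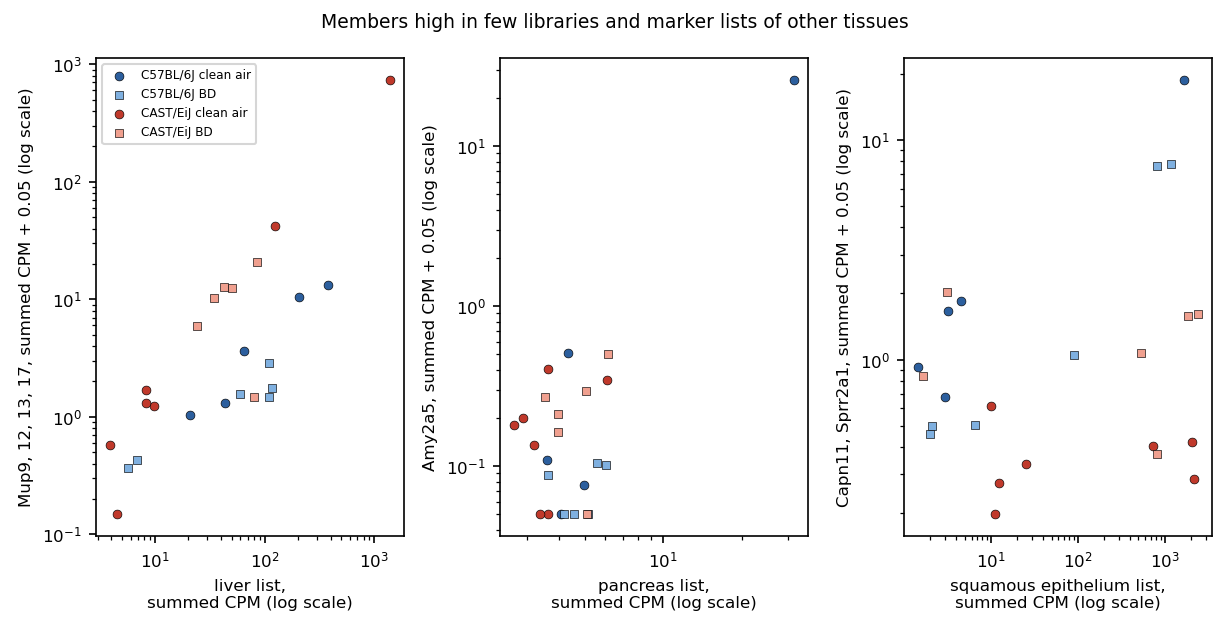
Summed CPM + 0.05 of 4 Mup genes, of Amy2a5, and of Capn11 with Sprr2a1 (y axes) against the summed CPM of the liver, pancreas and squamous epithelium lists (x axes) in each of the 24 libraries, all on log scales. The library at the top of each panel also has the highest value of the liver list (1394 CPM) or of the pancreas list (31.8 CPM), and in the squamous panel 1666 CPM.

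The BD comparison was made within each strain. The clean-air libraries that chose the members also enter this comparison, so the counts describe and do not test the group. In C57BL/6J, 22 of 199 members (11.1%) passed for BD without replicate 5 of the CAST/EiJ BD group, which lends its spread to the fit, against 10.7% of all genes, and 3 of 200 (1.5%) passed with it, against 7.47%. The first share was near that of all genes. Without it 9 rose and 13 fell (4.2% and 6.49% of all genes), and with it 3 rose and none fell (2.82% and 4.66%). Those 3 were Lyz1 and the identical entries Mir692-2a and Mir692-2b. Lyz1 rose by 0.79 on the log2 scale in C57BL/6J (SE 0.16, adjusted p = 0.00303 without that library and 0.025 with it), to 438 to 821 CPM (median 549), and all 6 BD libraries were above the 5 clean-air libraries. The following passed without that library and not with all libraries kept. With that library kept, Cd3e also passed when the title numbers over 100 were left out or taken as a covariate. Without that library and those numbers, 18 of the 22 passed, Cxcr1 and Arg2 not among them. Cxcr1 rose by 1.01 (SE 0.29, adjusted p = 0.0284), Fetub by 0.79 (SE 0.23, adjusted p = 0.027), Igfbp2 by 0.82 (SE 0.26, adjusted p = 0.0461) and Cort, the neuropeptide cortistatin, by 2.62 (SE 0.63, adjusted p = 0.0437). Cort had a single count in clean-air C57BL/6J, so the size of its fold depends on the prior count of the fit. Arg2 rose by 0.41 (SE 0.13, adjusted p = 0.0496). With the C57BL/6J groups fitted alone, 17 of the 22 passed, and Fetub, Cort and Arg2 were not among them. Sox11 fell by 0.72 (SE 0.13, adjusted p = 0.00112), Cacna1i, a T-type calcium channel, fell by 1.44 (SE 0.33, adjusted p = 0.00714), Cd3e fell by 1.25 (SE 0.33, adjusted p = 0.0155) and Gad1, a glutamate decarboxylase, fell by 0.91 (SE 0.29, adjusted p = 0.0456). The T cell list was at 5.96 to 12.8 CPM in BD C57BL/6J libraries, against 10.3 to 17.6 CPM in clean air. In the same libraries the B cell list was at 24.1 to 71.4 CPM against 76.8 to 149.9 CPM, without overlap. The part of cell numbers in these falls was not tested.

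In CAST/EiJ, 7 of 199 members (3.52%) passed for BD without replicate 5, against 7.22% of all genes: 3 rose and 4 fell (3.86% and 3.37% of all genes). Chia1 rose by 1.51 on the log2 scale (SE 0.32, adjusted p = 0.0147) and Spp1 by 1.502 (SE 0.39, adjusted p = 0.0306), while Sult1d1 fell by 2.42 (SE 0.59, adjusted p = 0.0247), Prkg2 fell by 0.72 (SE 0.22, adjusted p = 0.0464) and Rprl2, an RNase P RNA-like gene, fell by 2.003 (SE 0.51, adjusted p = 0.0269). Chia1 was at 2.70 to 7.47 CPM in the 5 BD libraries against 0.688 to 3.87 CPM in clean air, and those groups overlapped. Spp1 overlapped too, at 5.46 to 43.5 CPM against 2.70 to 15.7 CPM. The falls of Sult1d1, Prkg2 and Rprl2 overlapped as well. Sult1d1 was at 0.0804 to 0.613 CPM (2 to 13 counts a library) against 0.246 to 4.45 CPM. Prkg2 was at 0.44 to 0.886 CPM against 0.393 to 1.42 CPM, and Rprl2 at 0.545 to 5.71 CPM against 5.19 to 31.5 CPM. With replicate 5 kept, 39 of 200 members (19.5%) passed, against 13.8% of all genes: 38 on the C57BL/6J side rose and Rprl2 fell (7.4% and 6.36% of all genes). Among the 38, Gabra3, a GABA receptor subunit, was at 14.2 CPM in replicate 5 and at 0 to 0.121 CPM in the other 5, and Skint3 at 4.51 CPM and 0 to 0.545 CPM. Wfdc17 was at 3.05 CPM in replicate 5 against 0 to 0.0402 CPM, and the olfactory receptor Olfr1033 at 8.80 CPM against 0.0200 to 0.113 CPM. Title numbers over 100 were held by 5 of the 7 clean-air CAST/EiJ libraries and by none of the BD libraries. With those numbers and replicate 5 left out, 18 members passed, of which Prkg2 and Sult1d1 were among the 7 and none was among the 39. With the CAST/EiJ groups fitted alone and replicate 5 left out, 1 member passed, and it was none of the 7.

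The difference in BD response between the strains contains the clean-air strain difference that chose the members, so its counts too are descriptions. It was called for 10 of 199 members without replicate 5 (9.44% of all genes) and for 13 of 200 with it (11.7%). Without it 6 were higher in CAST/EiJ and 4 lower (5.62% and 3.82% of all genes), and with it 12 were higher and 1 lower (7.13% and 4.59%). Lyz1, Sox11, Cd3e, Chia1 and Cacna1i passed both ways. For Lyz1 the BD difference in CAST/EiJ was 0.85 lower on the log2 scale than in C57BL/6J (SE 0.22, adjusted p = 0.0243), and for Sox11 it was 0.79 higher (SE 0.19, adjusted p = 0.0185), both without replicate 5. Without replicate 5 and the title numbers over 100, 3 members passed, of which Sult1d1 was among the 10. With replicate 5 kept, edgeR called no member without those numbers (13 at an unadjusted p under 0.05) and none with them as a covariate (49 at an unadjusted p under 0.05), so the 5 calls named above ended in all of these fits.

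Replicate 5 did not stand with C57BL/6J at every gene. At 7 of the 188 genes it lay nearer CAST/EiJ, all named after their values were seen. Dmrtc2 was at 0 CPM in it, against 2.22 to 5.17 CPM in BD C57BL/6J and 0 to 0.201 CPM in the other 5 BD CAST/EiJ libraries, and its neighbour Lypd4 at 0.113 CPM, against 1.25 to 2.87 and 0 to 0.121 CPM. Gapdh was at 2.71 CPM, against 23.2 to 31.5 and 3.38 to 4.38 CPM. Mir692-2a and Mir692-2b were at 88.2 CPM, against 7.65 to 11.4 and 65.8 to 78.3 CPM, Mir692-1 was at 6.38 CPM, against 0.847 to 2.60 and 12.02 to 18.9 CPM, and Rprl2 was at 0.508 CPM, against 0 to 0.102 and 0.545 to 5.71 CPM. Of 59 other genes at least 8-fold apart under BD with ranges that did not overlap, 3 lay nearer CAST/EiJ in it. Among the 7, Mir692-2a and Mir692-2b are 1 measurement, Lypd4 and Dmrtc2 may share reads, and Rprl2 stood at position 0.52 on 9 counts. Over the 188 genes, each clean-air C57BL/6J library lay nearer CAST/EiJ at 1 to 5. Each clean-air CAST/EiJ library lay nearer C57BL/6J at 2 to 10. The clean-air libraries chose the members and replicate 5 did not, so these counts cannot be read against its 7.

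Neighbouring members pointed the same way. Of the 203 members with a place in the reference gene order, 37 stood next to another member, in 17 runs, and every run was higher in 1 strain only. Of the runs, 15 hold no identical entries. Among these, Mup12 with Mup13, Mup9 with Mup1 and Gm4794 with Sult3a1 ended without CAST/EiJ clean-air replicate 7. Lypd4 and Dmrtc2, another of the runs, may share reads. How often neighbours among all genes share a direction was not measured, so the runs are a description. The longest were Amy2a5, Amy2a4, Amy2a3 and Amy2a2 on chromosome 3, then Gm4951, Gm4841 and F830016B08Rik on chromosome 18. Gm4951 was at 14.9, 15.03, 11.1, 10.8 and 20.6 CPM in clean-air C57BL/6J and 0 to 0.283 CPM in CAST/EiJ, F830016B08Rik at 7.86 to 11.05 CPM against 0 to 0.0708 CPM, and Gm4841 at 1.39 to 2.29 CPM against 0.0434 to 0.475 CPM. Next came 9930111J21Rik2, at 69.7 to 89.3 CPM against 0.737 to 2.25 CPM, with Tgtp2 on chromosome 11. Kng2 and Kng1 on chromosome 16 were another pair. Apitd1, a centromere protein gene next to Cort on chromosome 4 and named after its values were seen, was at 5.58 to 7.49 CPM in clean-air CAST/EiJ and 0.267 to 0.661 CPM in C57BL/6J. Genes in tandem can share reads: 19 members had a promoter at least 90% identical over at least 200 bases to that of another gene, among them 9930111J21Rik2 (100%, with its copy 9930111J21Rik1), Tgtp2 (96.6%, with Gm12185), Mup9 (98.0%) and Mup17 (98.9%).

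Families were counted by the start of the gene symbol in the table, so not every member of a family encodes such a protein. In RefSeq, Serpina3h is a transcribed pseudogene, Zfp783 a long noncoding RNA, and Muc19 is matched to Smgc. Secreted proteases, inhibitors and mucosal proteins held 18 members among 195 genes at 1 CPM or more (9.23%, against 1.28% over all genes), 9 in each direction, with Lyz1, Serpina3h, Lcn8, Wfdc10 and 5 Mup genes on the CAST/EiJ side and, among others, Chia1, Wfdc17, Bpifb5, Cst8, Cst9 and Muc19 on the C57BL/6J side. Of the 18, 8 stayed members with each clean-air library left out in turn. The 5 Mup genes of the CAST/EiJ side did not, so that 4 genes remained there without CAST/EiJ replicate 7, and the identical entries Sprr2a1 and Sprr2a2 did not without C57BL/6J replicate 1. The 9 metabolic enzymes among 206, of which 3 stayed members every time, included Amy2a2 to Amy2a5, which rest on C57BL/6J replicate 5, and the sulfotransferases Sult2a1 and Sult3a1, higher in CAST/EiJ, and Sult1d1, higher in C57BL/6J. Surface receptors of lymphoid and myeloid cells held 7 of 140, transporters and channels 12 of 582 and cytokines with their receptors 3 of 128 (Ccl5, Cxcl5 and Cxcr1). Interferon and innate sensing genes held 3 members (Ifi44, Tgtp2 and Nlrp1a). Zinc finger proteins held 3 of 361 by the table's symbols, and 7 of 382 (1.83%) once genes with a provisional symbol were placed by their RefSeq symbols (a recount chosen after the values were seen), with Gm14420 (Zfp970), Gm13247 (Zfp981), Gm13157 (Zfp984) and 2610305D13Rik (Zfp979) added. Cell adhesion genes held 1 of 133 and muscle genes none of 53. Genes with a provisional symbol in the table held 43 of 1355, 33 of them higher in C57BL/6J, and 10 of the 43 have a gene name in RefSeq. The leaving out of families by name lowers some of these counts.

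All libraries carried the lung's own markers. The alveolar type 2 list summed to 14258 to 25486 CPM and the club cell list to 4103 to 11036 CPM over the 24 libraries. The macrophage list (3 of 4 markers in the table) was at 575 to 726 CPM in clean-air C57BL/6J and 1702 to 3636 CPM in clean-air CAST/EiJ, and the B cell list at 76.8 to 149.9 CPM and 13.3 to 59.0 CPM. The part of these cells in the strain ratios was not tested. Among the 76 CAST/EiJ-high members without overlap, the median log2 difference between clean-air CAST/EiJ libraries with numbers over 100 and numbers 1 and 2 was -0.07, and 8 differed by more than 2-fold. The 14 CAST/EiJ-high members with overlap, which are uneven within the groups, are not in this comparison. Numbers over 100 were held by 5 of the 7 clean-air CAST/EiJ libraries and by 1 of the 5 of C57BL/6J. Leaving them out changed the membership, as given in the last section.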

How the data were processed

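Polyadenylated RNA of mouse lung was read in 24 libraries. The table deposited by the authors holds raw counts per gene. Alignment with GSNAP to mm9 is per the submitters' processing notes. The counter and its use of strand are not given in the sources used here. Of 23893 entries, 23872 have a value in every library and were used. Values were scaled to CPM by library total. The members and gene lists were chosen with earlier results of these data known, and the members by the clean-air values. All 24 libraries were fitted with edgeR 4.0.16 (R 4.3.3; filterByExpr, TMM factors, robust quasi-likelihood test, group means without covariates, Benjamini-Hochberg adjustment over all genes tested, threshold 0.05), and refitted without CAST/EiJ BD replicate 5. The SE is the log2 difference divided by the root of F. On simulated counts of the strain comparison under BD, 14.3% of 1.5-fold, 92% of 2-fold and 100% of 4-fold changes were recovered. The simulation gave every gene a dispersion of 0.05 and held no library set apart from its group. These shares therefore do not give the power for genes of larger spread. No pair of libraries in a group agreed within sampling noise (chi-square per degree of freedom at least 5.20). Python 3.11.15 and blastn 2.17.0 were used for promoters. Sequences are from RefSeq (GRCm38.p6), whose table matched 203 members. Named genes were members with a gene name of their own, in each direction: the 12 highest by clean-air mean among those whose ranges did not overlap, the 3 just inside and the 3 genes just outside the ratio limit, up to 4 that passed for BD by fold (in the fits with and without replicate 5), up to 6 that lost a 2-fold difference under BD, up to 4 that rest on 1 clean-air library, and up to 3 runs of neighbours, with Nnt and Ifi202b. Others are said to be named after their values were seen. A planned protein comparison of related members was not run. Alternatives were DESeq2 1.42.0, other size factors, no filter, other groups in the fit, single libraries left out, the title numbers over 100, and other limits of the rule.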

Additional observations from a re-analysis of the deposited data

Results flagged for a closer look

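Of 253 groups of libraries checked over the 64 named members, 64 held a library whose gap to the nearest other library took up more of the group's range than Dixon's 95% limit. Chance flags about 1 group in 20, but the 64 cannot be read against that, since some members were named because they rest on 1 library or passed for BD through replicate 5, and some entries hold identical counts. CAST/EiJ BD replicate 5 accounts for 32 of the 64. Genes of the C57BL/6J side stood above the other 5 libraries there and genes of the CAST/EiJ side below them. In CPM, the members high in it were 9930111J21Rik2 at 65.2, Bpifb5 at 2.6, C7 at 316, Cacna1i at 8.18, Cd3e at 2.88, Chia1 at 63, F830016B08Rik at 9.2, Gabra3 at 14.2, Glp1r at 66.5, Gm4841 at 2.65, Gm4951 at 15, Gpc2 at 1.52, Hc at 897, Igfbp2 at 144, Mup20 at 2.99, Olfr1033 at 8.8, Prkg2 at 29.5, Pttg1 at 31.7, Skint3 at 4.51, Sox11 at 28, Sult1d1 at 32.2, Tgtp2 at 53 and Wfdc17 at 3.05. The members low in it were Arg2 at 9.31, Col6a5 at 3.78, Cort at 0, Fetub at 5.19, Itih3 at 2.31, Kng1 at 1.35, Kng2 at 0.959, Lyz1 at 1088 and Nkain3 at 0.

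Clean-air libraries made up most of the others, in CPM. CAST/EiJ clean air replicate 7 stood apart with Hc at 95.4, Igfbp1 at 11.8, Igfbp2 at 24.9, Kng1 at 249, Mup12 at 231, Mup13 at 80.9, Mup17 at 346 and Mup9 at 75.8. CAST/EiJ clean air replicate 6 stood apart with 9930111J21Rik2 at 2.25, Bmp10 at 3.14, Gm4841 at 0.475, Skint3 at 0.178 and Tgtp2 at 30.6. CAST/EiJ clean air replicate 5 stood apart with Kng2 at 282 and Rprl2 at 31.5. C57BL/6J clean air replicate 1 stood apart with 1700025M24Rik at 0.0267, Capn11 at 5.84, Cort at 0.0267, Prkg2 at 31.7 and Sprr2a1 at 12.9. C57BL/6J clean air replicate 3 stood apart with Gm14420 at 49.8. C57BL/6J clean air replicate 5 stood apart with Amy2a2 at 22.6, Amy2a3 at 22.6, Amy2a4 at 22.6, Amy2a5 at 25.8, Bmp10 at 25.7 and Pnlip at 5.39. Among the BD libraries other than CAST/EiJ replicate 5, C57BL/6J replicate 6 stood apart with Bpifb5 at 4.33 and Gabra3 at 15.9, C57BL/6J replicate 3 with Mup13 at 0.985, C57BL/6J replicate 4 with Nkain3 at 0.0639 and CAST/EiJ replicate 3 with Pnlip at 0.02. Values of 0.0267, 0.0639 and 0.02 CPM among these are 1 or 2 counts.

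With all libraries kept, 8 named members were called for a difference in BD response between the strains by edgeR's interaction term, which contains the clean-air difference that chose them. None was called without the title numbers over 100 or with these as a covariate. Values are given as the log2 ratio of the response in CAST/EiJ to that in C57BL/6J. Cacna1i gave 3.84 (adjusted p = 0.0223) and 1.98 without CAST/EiJ BD replicate 5 (adjusted p = 0.0362). Cd3e gave 2.47 (adjusted p = 0.0167) and 1.87 without CAST/EiJ BD replicate 5 (adjusted p = 0.0265). Chia1 gave 2.73 (adjusted p = 0.0371) and 1.33 without CAST/EiJ BD replicate 5 (adjusted p = 0.0492). F830016B08Rik gave 6.18 (adjusted p = 0.0339) and 1.36 without CAST/EiJ BD replicate 5 (adjusted p = 0.346). Gm4951 gave 4.76 (adjusted p = 0.0391) and 1.07 without CAST/EiJ BD replicate 5 (adjusted p = 0.292). Skint3 gave 5.11 (adjusted p = 0.035) and 2.39 without CAST/EiJ BD replicate 5 (adjusted p = 0.164). Sox11 gave 1.67 (adjusted p = 0.0417) and 0.79 without CAST/EiJ BD replicate 5 (adjusted p = 0.0185). Lyz1 gave -1.01 (adjusted p = 0.0282) and -0.85 without CAST/EiJ BD replicate 5 (adjusted p = 0.0243). F830016B08Rik, Gm4951 and Skint3 did not pass without that library.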

How the results depend on the processing

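The near on-or-off genes, 0.867% of the 23872 genes, came to 0.335% (38 higher in CAST/EiJ, 42 in C57BL/6J) with 0.5 CPM added to the means, 2.60% (281 and 339) at a ratio of at least 4, 0.335% (33 and 47) at a ratio of at least 16 and 0.436% (50 and 54) with a higher mean of at least 5 CPM. With 1 clean-air library left out they lay between 0.821% and 1.28%, or 196 and 305 genes. The 305 were without C57BL/6J replicate 1, the one C57BL/6J clean-air library with a title number over 100, and held 200 of the 207, with 178 genes higher in CAST/EiJ and 127 in C57BL/6J. Without all title numbers over 100 there were 310 genes, 164 of them among the 207. The 170 members called between strains under BD came to 153 to 186 with 1 library left out and stayed within 1.5 times of 170 under every alternative run. For BD in C57BL/6J, the 3 members came to 7 without a filter on low counts, 32 with the compared groups alone, 5 with the title numbers over 100 as a covariate, 30 by DESeq2 without CAST/EiJ BD replicate 5, 29 without that library and the numbers over 100, and 0 to 22 with 1 library left out (0 without C57BL/6J clean-air replicate 3). For BD in CAST/EiJ, the 39 members came to 23 without a filter, 0 with the compared groups alone, 1 when replicate 5 was left out as well, 11 without the numbers over 100, 9 with them as a covariate, 15 by DESeq2 without replicate 5, 18 without replicate 5 and the numbers over 100, and 6 to 62 with 1 library left out (7 without BD replicate 5, 62 without BD replicate 3, and 6 to 13 without any 1 of clean-air replicates 1 to 5). The 13 members called for the strain by BD interaction came to 25 by DESeq2, 0 without the numbers over 100, 0 with them as a covariate, 3 without replicate 5 and the numbers over 100, and 1 to 41 with 1 library left out. The fits with replicate 5 or the numbers over 100 left out, and those of the compared groups alone, use fewer libraries, and the cause of the other changes was not tested. Among 58 named members tested between strains under BD, 1750 of 1887 alternative values kept direction and side of the threshold, 84 no longer passed, 48 newly passed and 5 reversed. The 5 were all of Capn11 (-0.09, not called), which came to 0.03, 0.51, 0.08, 0.17 and 0.12 on the log2 scale with 1 library left out, in a range from -0.65 to 0.51. The 2 alternatives that leave out replicate 5 together with another choice (DESeq2, or the numbers over 100) were chosen after seeing the data. No paired analysis was possible because no RNA-seq groups share a title number and replicate numbers were given in accession order. A level of 1 CPM is 10.6 counts in the smallest library and 50.002 in the largest, so lower-strain values under 0.5 CPM rest on few counts.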
